A study of Penicillium oxalicum with 9 samples.

Results

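The deposited FPKM tables of Penicillium oxalicum list, beside the genes that carry an annotated POX identifier, transcribed loci known only by a running number. The members described here are the loci numbered up to 7488 that were selected on a mean FPKM of at least 10 over all 9 libraries, which left 129 of 1231 such loci and 129 of 11082 features in all. FPKM is a fragment count corrected for the length of the feature and the size of the library. A locus is written below as locus 5584 and so on, the number being that of its identifier in the tables. The files used here give neither a position, a length nor a sequence for these loci, so no function, strand or neighbour can be named for any of them.

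Mycelium of 3 strains was compared, with 3 libraries each. Δprmt3 (Δprmt3;G418R+) is named in the labels as a POX03070 knockout. It was taken as the study's deletion of the arginine methyltransferase gene prmt3, although the study numbers that gene POX_b03080. ΔcxrA (ΔcxrA;G418R+) lacks the gene of the regulator CxrA, and Δku70 (Δku70;hphR+) is the background strain, labelled as the wild type. The strains all derive from HP7-1 and lack ku70, and the mutants carry a G418 resistance marker that Δku70 lacks, so the marker and the deletion cannot be told apart. Each culture was grown for 24 h in glucose medium (1%) and moved for 24 h to 2% Avicel, which is microcrystalline cellulose, all at 28 °C.

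Gene annotations of fungal genomes rest on gene prediction and on the transcripts known at the time, so RNA-sequencing also detects transcribed stretches outside the annotated models. Such loci can be protein genes that were missed, non-coding or antisense RNAs, or untranslated parts of neighbouring genes. CxrA is a zinc-cluster transcription factor of cellulase and xylanase genes, and arginine methyltransferases add methyl groups to arginines of proteins, transcription factors and histones among them. On cellulose, fungi of this kind secrete large amounts of plant cell wall-degrading enzymes.

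The sums of FPKM lay between 1036054 and 1096738 per library. Absolute depth is not in the files: the commonest ratio of low values between libraries, taken against the second Δprmt3 library, lay between 1.09 and 1.49 in the others. Median-of-ratios factors, by which FPKM were divided, were 0.822 to 0.863 in Δprmt3, 1.23 to 1.28 in ΔcxrA and 0.909 to 0.964 in Δku70. The prmt3 gene POX_b03080 was listed at 0, 0.04 and 0 FPKM in Δprmt3, against 33.4, 24.9 and 29.1 FPKM in Δku70. POX_a00763, taken as cxrA, was listed at 0 in the 3 ΔcxrA libraries, against 116, 121 and 90.7 FPKM in Δku70. Actin (POX_d06005) stood at 129, 113 and 113 FPKM in ΔcxrA, against 33.2, 31.3 and 35.7 FPKM in Δku70, so it gives no flat reference level.

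The members were mostly weakly expressed, with a few at the top of the transcriptome. The quartiles of their mean level lay at 12.9, 18.2 and 40.1 FPKM, whereas the 7222 annotated genes with a mean of at least 10 FPKM had a median of 45.5. Of the 129 members, 73 had a mean under 20 FPKM, 20 reached 100 FPKM and 4 reached 1000 FPKM. A mean of 1000 FPKM was thus reached by 3.1% of the members, against 2.06% of annotated genes of at least 10 FPKM. A mean of at least 10 was itself reached by 10.5% of the loci numbered up to 7488 and by 73.5% of annotated genes.

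The 4 highest members, loci 5584, 3208, 508 and 4952, ranked 2, 3, 10 and 20 among all features by mean FPKM. Together they held 4.67%, 5.42% and 4.98% of the FPKM sum in Δprmt3 and 1.23%, 1.24% and 1.2% in ΔcxrA, against 2.95%, 2.54% and 3.52% in Δku70. The other members together held 0.527% to 0.56% of the sum in Δprmt3, 0.601% to 0.63% in ΔcxrA and 0.466% to 0.566% in Δku70. The share of the members thus moved with 4 loci.

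Locus 5584 was the second most abundant feature of the data. It had 18298, 23760 and 19455 FPKM in Δprmt3, 2407, 2240 and 2107 FPKM in ΔcxrA, and 11031, 9108 and 13447 FPKM in Δku70. The groups did not overlap. Its log2 fold change was 1.04 ± 0.216 (SE, limma adjusted p = 0.0084) in Δprmt3 over Δku70 and -2.71 ± 0.216 (limma adjusted p = 1.4e-05) in ΔcxrA over Δku70. The rise in Δprmt3 lies just past the threshold of 1: it lost its call with only the 6 libraries of the comparison (limma adjusted p = 0.06), was 0.88 without scaling, 0.94 and 0.93 without Δprmt3 replicate 2 and Δku70 replicate 2, and -0.43 after quantile normalization, which sets the highest values of all libraries equal.

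Locus 3208 rose in Δprmt3 alone of the mutants. It had 19099, 21468 and 21340 FPKM in Δprmt3, 5874, 5312 and 4569 FPKM in ΔcxrA, and 3535, 3188 and 4459 FPKM in Δku70. The log2 fold change in Δprmt3 over Δku70 was 2.64 ± 0.205 (limma adjusted p = 3.9e-05), and in ΔcxrA over Δku70 it was 0.09 ± 0.205. In ΔcxrA over Δprmt3 it was -2.55 ± 0.205 (limma adjusted p = 1.6e-05), so the mutants themselves differed, though after quantile normalization this change no longer exceeded 1 in size and was not called.

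Loci 508 and 4952 fell in ΔcxrA. Locus 508 had 7756, 8054 and 8156 FPKM in Δprmt3 and 3614, 3908 and 4370 FPKM in ΔcxrA, against 9338, 7512 and 10332 FPKM in Δku70. Its log2 fold change in ΔcxrA over Δku70 was -1.60 ± 0.189 (limma adjusted p = 0.00013). Locus 4952 had 3809, 4800 and 4512 FPKM in Δprmt3 and 1427, 1643 and 1916 FPKM in ΔcxrA, against 7868, 6527 and 10315 FPKM in Δku70. All mutant libraries lay below those of Δku70, with log2 fold changes of -2.70 ± 0.21 in ΔcxrA and of -0.73 in Δprmt3, the second being smaller than the threshold of 1.

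The next 6 members by level lay between 262 and 506 FPKM. Locus 3459, at 418, 446 and 405 FPKM in Δprmt3 and 699, 642 and 609 FPKM in ΔcxrA, against 446, 377 and 509 FPKM in Δku70, was among the least changed members once scaled, with log2 fold changes of 0.10 in Δprmt3, which was -0.06 without scaling, and of 0.15 in ΔcxrA. Loci 537, 5551 and 1769 did not pass in either mutant, their largest change against Δku70 being -0.84 ± 0.241 for locus 1769 in ΔcxrA. Locus 3426 fell in ΔcxrA, with 135, 162 and 210 FPKM against 387, 287 and 530 FPKM in Δku70. The remaining one, locus 7130, was nearly silent in Δku70.

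**Figure D1:**
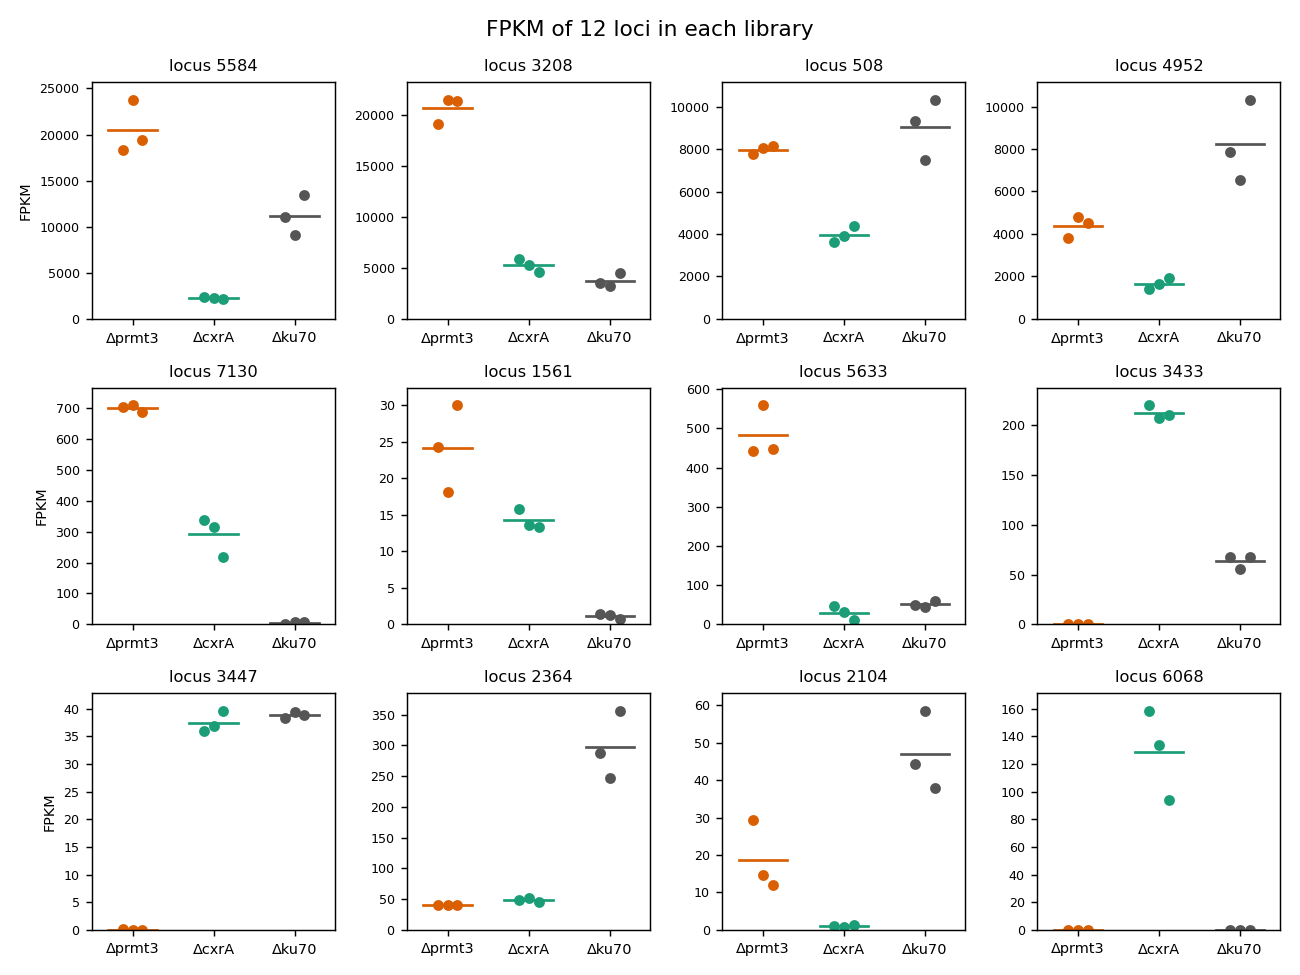
FPKM (y axis, linear, a scale for each panel) of 12 loci in the 3 libraries of Δprmt3, ΔcxrA and Δku70 (x axis); points are libraries and lines are strain means. Locus 7130 reached 687 to 709 FPKM in Δprmt3, against at most 7.29 FPKM in Δku70, and locus 6068 was above 0 in ΔcxrA only.

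Against Δku70, 28 of the 129 members were called in Δprmt3, which here means a limma adjusted p below 0.05 with a log2 change larger than 1 in size. This is 21.7% of the members, beside 11.1% of all 10578 features tested. The share depended on the limit of level. It was 15.4% of the loci with a mean of at least 5 FPKM and 28.6% of those with at least 20 FPKM. Higher in Δprmt3 were 10 members (7.75%, beside 3.59% of all features), and lower were 18 (14%, beside 7.51%). The median log2 fold change of the members was 0.00, as over all features, and the median absolute change was 0.53, beside 0.31 over all features and 0.25 over annotated genes of at least 10 FPKM.

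The largest rise in Δprmt3 was that of locus 7130. It had 705, 709 and 687 FPKM in Δprmt3, against 0.56, 7.17 and 7.29 FPKM in Δku70, a log2 fold change of 7.90 ± 0.82 (limma adjusted p = 0.00021). Its Δku70 libraries differed 11.6-fold among themselves on the scale of scaled FPKM + 0.1. In ΔcxrA it had 339, 315 and 220 FPKM, so both mutants lay far above Δku70.

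Loci 1561, 5633, 3411 and 7128 followed. Locus 1561 had 24.2, 18.1 and 30.0 FPKM in Δprmt3, against 1.40, 1.27 and 0.79 FPKM in Δku70 (log2 fold change 4.44 ± 0.256). Locus 5633 had 442, 559 and 448 FPKM in Δprmt3, against 48.2, 45.3 and 60.2 FPKM in Δku70 (3.40 ± 0.469). Locus 3411 stood at 32.2, 36.8 and 31.9 FPKM in Δprmt3, against 3.07, 6.09 and 3.62 FPKM in Δku70 (3.17 ± 0.415). For locus 7128, the values were 18.8, 13.9 and 14.0 FPKM in Δprmt3, against 1.12, 2.28 and 2.85 FPKM in Δku70 (3.08 ± 0.417). That no Δprmt3 library overlapped a Δku70 library was a condition for naming these loci, so it is not a result.

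Loci 3433 and 3447 were almost lost in Δprmt3. Locus 3433 was listed at 0, 0 and 0.13 FPKM in Δprmt3, against 67.8, 55.9 and 67.2 FPKM in Δku70. Locus 3447 was listed at 0.10, 0 and 0 FPKM in Δprmt3, against 38.3, 39.4 and 38.9 FPKM in Δku70. Their fitted log2 fold changes, -8.94 and -8.32, depend on the pseudocount, with -6.02 and -5.35 at a pseudocount of 1 and -11.36 and -10.79 at 0.01. Both passed at each pseudocount.

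Further falls in Δprmt3 were smaller. Locus 4743 had 0.74, 0.56 and 0.50 FPKM in Δprmt3, against 35.0, 20.9 and 39.3 FPKM in Δku70 (log2 fold change -5.34 ± 0.244, limma adjusted p = 2.1e-06). Locus 6513, near the lower limit of level, had 2.90, 1.28 and 0 FPKM in Δprmt3, against 20.4, 18.9 and 36.8 FPKM in Δku70 (-4.97 ± 1.14, limma adjusted p = 0.013), and lost its call without Δku70 replicate 3 (limma adjusted p = 0.05). Among the more abundant members, locus 2364 had 40.5, 41.0 and 40.6 FPKM in Δprmt3, against 287, 246 and 356 FPKM in Δku70 (-2.69 ± 0.115), and locus 7157 had 79.1, 102 and 125 FPKM in Δprmt3, against 650, 486 and 344 FPKM in Δku70 (-2.09 ± 0.249).

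In ΔcxrA, 55 members were called against Δku70, which is 42.6% of the members beside 29.7% of all features. Higher were 26 members (20.2%, beside 16.4% of all features) and lower were 29 (22.5%, beside 13.2%). The split depends on the scaling: without it, which moves the median of all features by 0.41 on the log2 scale, 38 members were higher and 22 lower. It also depends on the choice of members, since 24 of them reached a mean of 10 FPKM in ΔcxrA alone and passed through that strain. With the limit of level at 5 FPKM, 70 loci were higher and 44 lower. With the limit at 20 FPKM, 9 were higher and 15 lower. The choice used FPKM before scaling, whereas the calls used scaled FPKM, which are lower than FPKM in ΔcxrA and higher in the other strains. Among the 62 members that reached 10 FPKM in all 3 strains, 2 were higher (3.23%, beside 7.41% of annotated genes meeting this condition). Lower were 15 of them (24.2%, beside 12.9%). Without scaling, 7 of the 62 were higher and 10 lower. The median absolute log2 change of the members was 0.86, beside 0.66 over all features.

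The largest rise was that of locus 6068, which was listed at 158, 134 and 94.2 FPKM in ΔcxrA and at 0 in all Δprmt3 and all Δku70 libraries, so no fold change is given. Locus 3599 had 148, 162 and 76.4 FPKM in ΔcxrA, against 0, 7.34 and 0 FPKM in Δku70 (limma adjusted p = 0.002), and locus 4762 had 197, 158 and 281 FPKM in ΔcxrA, against 5.65, 4.54 and 0 FPKM in Δku70 (limma adjusted p = 0.0027). Locus 2528 had 77.6, 76.4 and 70.6 FPKM in ΔcxrA, against 1.16, 0.75 and 1.57 FPKM in Δku70, a log2 fold change of 5.54 ± 0.335 (limma adjusted p = 2.9e-06). Locus 7130, above, rose by 6.04 ± 0.82 in ΔcxrA. Among the more abundant members that rose, locus 5952 had 170, 161 and 141 FPKM in ΔcxrA, against 60.5, 41.3 and 54.0 FPKM in Δku70 (1.20 ± 0.183), and locus 3433 had 220, 207 and 211 FPKM in ΔcxrA (1.33 ± 0.331), the call of the second being lost at a pseudocount of 0.01.

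The largest fall in ΔcxrA was that of locus 2104, with 1.02, 0.80 and 1.27 FPKM in ΔcxrA, against 44.3, 58.6 and 37.8 FPKM in Δku70 (log2 fold change -5.75 ± 0.33, limma adjusted p = 2.1e-06). Locus 4359 had 4.35, 4.12 and 3.81 FPKM in ΔcxrA, against 72.0, 45.8 and 58.6 FPKM in Δku70 (-4.19 ± 0.3). Locus 2667 had 2.90, 3.60 and 2.87 FPKM in ΔcxrA, against 30.1, 23.6 and 25.7 FPKM in Δku70 (-3.44 ± 0.247). Locus 6513 had 5.76, 4.65 and 2.04 FPKM in ΔcxrA (-3.04 ± 1.14, limma adjusted p = 0.047), a call lost when any ΔcxrA or Δku70 library was left out. Locus 7157 had 72.1, 77.7 and 83.9 FPKM in ΔcxrA, below all Δku70 libraries (-3.02 ± 0.249).

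**Figure D2:**
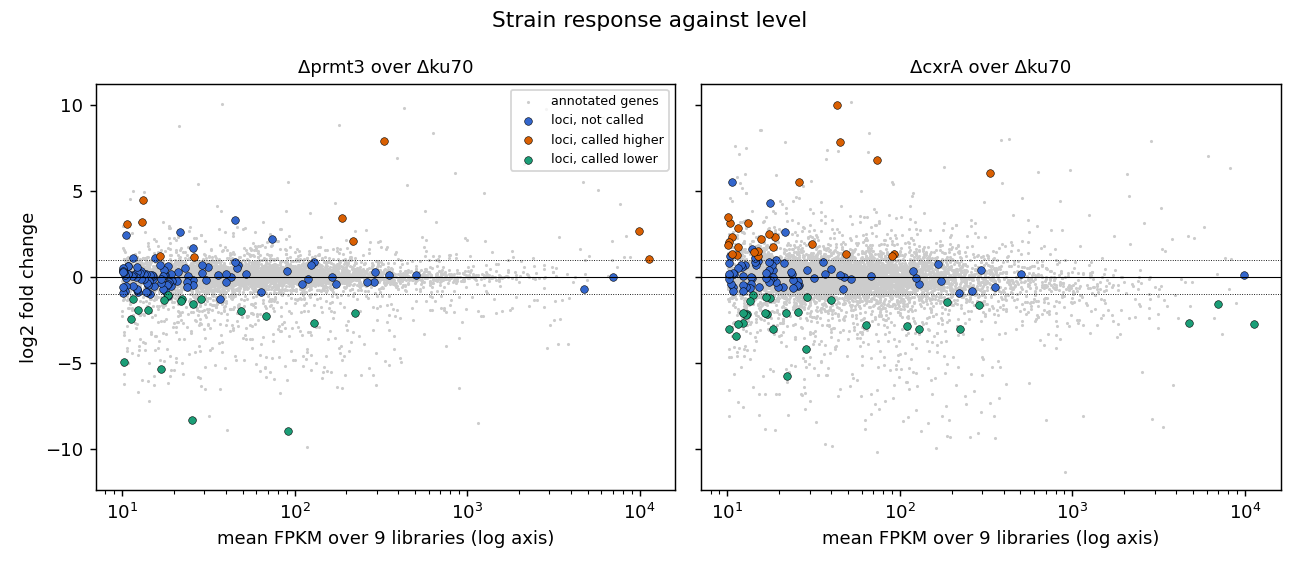
Log2 fold change of each member (coloured by its call) and of annotated genes of at least 10 FPKM (grey) in Δprmt3 over Δku70 (left) and ΔcxrA over Δku70 (right), against mean FPKM over the 9 libraries on a log axis; dotted lines mark 1 and -1. In Δprmt3, 10 members were called higher and 18 lower; in ΔcxrA, 26 higher and 29 lower.

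Both comparisons use the same Δku70 libraries, so a high or low Δku70 value enters each. Calls shared by the mutants are therefore not counted here, and whether the mutants differ at a locus is given by their direct comparison. Called in none of the 3 comparisons were 63 members (48.8%), beside 60.6% of all features and 66.5% of annotated genes of at least 10 FPKM.

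The 3 most abundant members with opposite calls were loci 5584, 5633 and 3433. Locus 5633 had 46.0, 32.2 and 9.98 FPKM in ΔcxrA, against 48.2, 45.3 and 60.2 FPKM in Δku70 (log2 fold change -1.46 ± 0.469). The ΔcxrA libraries lay below all Δku70 libraries only once scaled. Its call was lost without ΔcxrA replicate 3 (-0.81), without any 1 of the Δku70 libraries and without scaling. Loci 2446 and 7321, named after their values were seen, were lower in Δprmt3 and higher in ΔcxrA: locus 7321 had 2.07, 1.79 and 1.99 FPKM in Δprmt3 and 35.0, 32.4 and 28.6 FPKM in ΔcxrA, against 9.12, 7.51 and 9.40 FPKM in Δku70. The least changed members were loci 5459, 3459 and 3002, the largest change of locus 3002 being -0.20 ± 0.225 in ΔcxrA over Δprmt3, and 0.37 without scaling.

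In ΔcxrA against Δprmt3, 55 members (42.6%) were called, beside 29.8% of all features. Higher in ΔcxrA were 29 members (22.5%, beside 17.6%) and lower were 26 (20.2%, beside 12.2%). Without scaling, which moves the median of all features by 0.57, 50 were higher and 16 lower. Here too, 24 members passed the choice of members through ΔcxrA alone. The strongest fall was that of locus 3411, which had 1.40, 0.53 and 1.88 FPKM in ΔcxrA, against 32.2, 36.8 and 31.9 FPKM in Δprmt3 (log2 fold change -5.31 ± 0.415, limma adjusted p = 1.4e-05).

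Set beside annotated genes of the same level, the members' shares were the higher ones in each comparison, which is a description without a test. Weighted to the levels of the members, in bins of mean FPKM from 10 to 20, 20 to 50, 50 to 100, 100 to 200 and 200 and over, the share of annotated genes called was 11.6% in Δprmt3, 26.1% in ΔcxrA and 24.7% in ΔcxrA against Δprmt3. In Δprmt3 the bin with the most members, 10 to 20 FPKM, had 12 of 73 called (16.4%, beside 12.5% of 1234 annotated ones), and the bin of 200 and over had 5 of 12 (41.7%, beside 17.1% of 826). In ΔcxrA these bins had 31 of 73 (42.5%, beside 26.7%) and 6 of 12 (50%, beside 36.8%). The bin of 20 to 50 FPKM had 7 of 30 called in Δprmt3 (23.3%, beside 8.1% of 2617 annotated ones) and 11 of 30 in ΔcxrA (36.7%, beside 20%). The bins from 50 to 100 and from 100 to 200 hold 6 and 8 members, too few to read, and that of 200 and over holds only 12.

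The choice by mean level bears on these shares, because a locus that is high in 1 strain only passes through that strain. A mean of at least 10 FPKM, before scaling, was reached in all 3 strains by 62 members (48.1%), against 88.2% of annotated genes. Reaching it in ΔcxrA alone were 24 members, in Δku70 alone 4 and in Δprmt3 alone 1. Among the 62, the share called was 14.5% in Δprmt3, 27.4% in ΔcxrA and 27.4% between the mutants, beside 6.77%, 20.3% and 20.3% of annotated genes that met the same condition. Of those 62 members, 2 were higher (3.23%, beside 7.41% of such annotated genes) and 15 lower (24.2%, beside 12.9%) in ΔcxrA against Δku70, and without scaling 7 were higher and 10 lower. In ΔcxrA against Δprmt3, 3 were higher (4.84%, beside 6.81%) and 14 lower (22.6%, beside 13.5%). Without scaling that direction turned, with 13 higher and 8 lower. In Δprmt3 against Δku70, 4 were higher (6.45%, beside 3.05%) and 5 lower (8.06%, beside 3.72%), and without scaling 3 and 6.

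**Figure D3:**
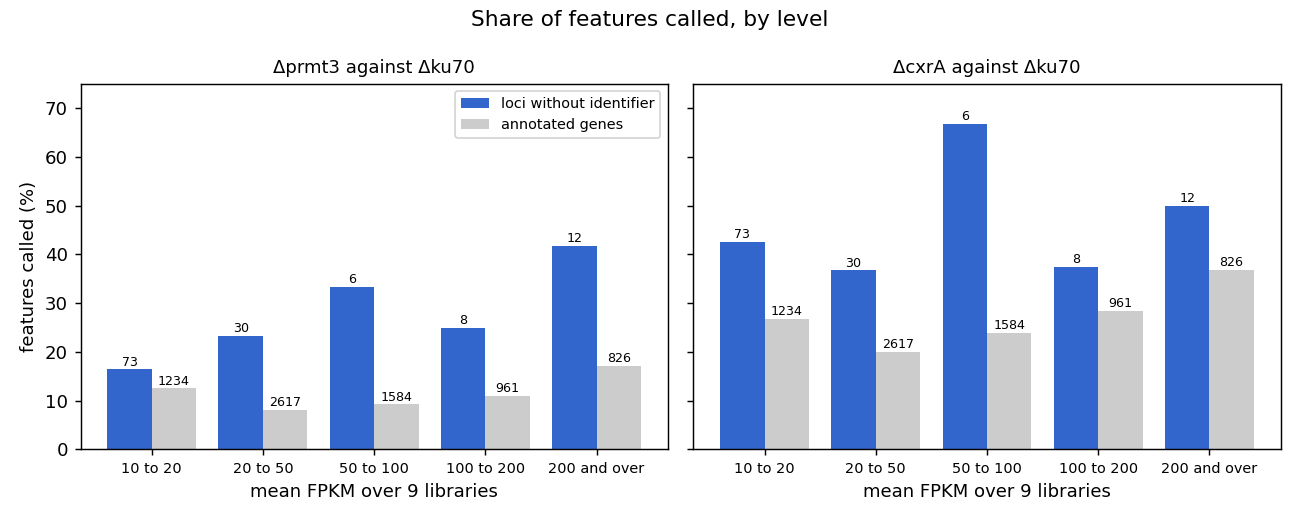
Percentage of members (blue) and of annotated genes (grey) called in Δprmt3 (left) and ΔcxrA (right) against Δku70, by mean FPKM over 9 libraries; the number above a bar is the number of features in it. At 10 to 20 FPKM, the share was 16.4% of members and 12.5% of annotated genes in Δprmt3, and 42.5% and 26.7% in ΔcxrA.

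The spread of the members between replicates was, at the median, above that of annotated genes in each bin of mean FPKM. The bins match the mean over all 9 libraries and not the level within each strain. A mean of 10 FPKM in all 3 strains was reached by 48.1% of the members, against 88.2% of annotated genes. Whether this difference contributes to the wider spread was not tested. The median standard deviation within strains, on the log2 scale of scaled FPKM + 0.1, was 0.325 over the members of 10 to 20 FPKM, beside 0.19 over annotated genes, and 0.265 beside 0.159 at 200 FPKM and over. Within a strain, 10 members (7.75%) differed over 10-fold between replicates, beside 1.09% of annotated genes of at least 10 FPKM.

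Locus 4660, chosen after its values were seen, had 48.9, 80.9 and 0.71 FPKM in Δprmt3, 7.88, 5.20 and 4.63 FPKM in ΔcxrA, and 2.08, 0.67 and 80.4 FPKM in Δku70. Locus 2870 was listed at 0, 0 and 47.5 FPKM in Δprmt3 and at 0, 41.9 and 0 FPKM in Δku70. Locus 550 was listed at 0, 12.8 and 0 FPKM in Δprmt3, at 54.6, 28.0 and 0 FPKM in ΔcxrA and at 0 in all Δku70 libraries. None of these loci passed in any comparison. Their lengths are not in the files used here, so the number of fragments behind a value is unknown.

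Of the members, 9 (6.98%) were listed at 0 in at least 1 library, beside 0.997% of annotated genes of at least 10 FPKM. At the lower limit of level, loci 6059, 970 and 2153 lay just inside, at means of 10.11, 10.12 and 10.22 FPKM, and loci 3513, 1255 and 7276 just outside, at 9.97, 9.98 and a value that rounds to 10.00. Locus 1255 was carried by ΔcxrA, with 31.5, 26.2 and 24.7 FPKM in ΔcxrA, against 0.73, 2.26 and 0.65 FPKM in Δku70. Of the 14 loci of higher number with a mean of at least 10 FPKM, which were left out by the choice, 12 differed over 10-fold between replicates of a strain.

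**Figure D4:**
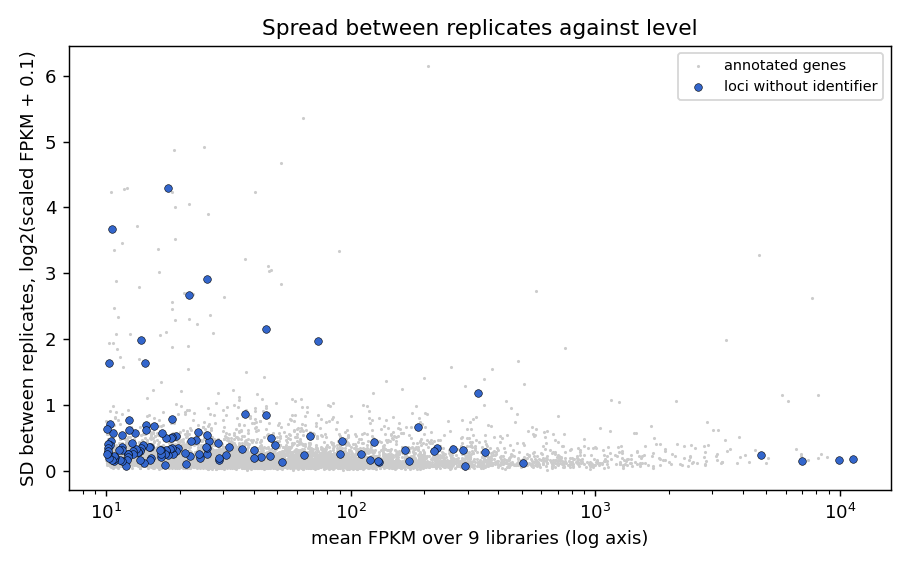
Standard deviation between replicates within strains, on the log2 scale of scaled FPKM + 0.1 (y axis), against mean FPKM over 9 libraries (x axis, log), for members (blue) and annotated genes of at least 10 FPKM (grey). At 10 to 20 FPKM the median was 0.325 for members and 0.19 for annotated genes.

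Running numbers gave 4 pairs of consecutive members. Loci 4952 and 4953 had log2 fold changes of -2.70 and -2.78 in ΔcxrA and -0.73 and -0.86 in Δprmt3. Loci 4052 and 4053 had -2.10 and -2.11 in ΔcxrA and -1.40 and -1.95 in Δprmt3. The other pairs lay further apart in ΔcxrA, loci 3416 and 3417 having -0.18 and -1.33 there and 0.08 and -0.27 in Δprmt3, and loci 5546 and 5547 having 0.77 and 1.93 in ΔcxrA and 0.00 and -0.19 in Δprmt3. The median difference within the 4 pairs was 0.271 in Δprmt3 and 0.609 in ΔcxrA, beside 0.973 and 1.68 over all 8256 pairs of members. Widening to numbers at most 3 apart gave 13 pairs, the 4 above included. The median difference of these pairs was 0.382 for the Δprmt3 change and 1.15 for the ΔcxrA change, each against Δku70. Compared directly, the mutants gave a median of 1.6, near the 1.72 over all pairs, whereas consecutive pairs alone gave 0.668. Whether consecutive numbers lie next to each other in the genome is not given in the sources used here.

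Among annotated genes of at least 10 FPKM, the profile nearest to that of locus 7130 over the 9 libraries was POX_b02060, annotated as a hypothetical protein, with a root mean square difference of 0.219 on the centred log2 scale. POX_b02060 had 17571, 16660 and 17653 FPKM in Δprmt3, 7259, 7035 and 6984 FPKM in ΔcxrA, and 13.3, 162 and 132 FPKM in Δku70, so its first Δku70 library was also the lowest. POX_h09441 (0.623) and POX_h09440 (0.656) followed.

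For locus 3433 the nearest profile was that of the deleted prmt3 gene itself, POX_b03080 (0.745), followed closely by POX_c04583 (0.77) and then by POX_c04595 (1.06). Locus 3433 and these genes were at or near 0 in Δprmt3, so the distances and their order depend on the pseudocount of 0.1. POX_c04583 was listed at 0 in all Δprmt3 libraries, against 31.3, 28.8 and 26.9 FPKM in Δku70. For locus 6068 the nearest was POX_g09022 (0.894), annotated as the mating-type protein MAT alpha 1, a regulator of sexual identity in fungi, with 1226, 1125 and 1105 FPKM in ΔcxrA, against 3.82, 4.21 and 2.40 FPKM in Δku70. POX_a00778 (1.0) and POX_d05285 (1.21), both annotated as hypothetical proteins, followed. Because locus 6068 was listed at 0 outside ΔcxrA, its distances depend on the pseudocount as well. For locus 2104 the nearest were POX_c03564 (0.371), POX_a00738 (0.392) and POX_c04470 (0.4), the last annotated as a C2H2 zinc finger transcription factor.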

How the data were processed

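Per the labels and the study's methods, total RNA of 9 libraries was sequenced in 3 biological replicates per strain. The FPKM were made by the authors, who used SOAPnuke for quality control, HISAT2 for mapping and RSEM with Bowtie2 for expression; each library has its own deposited table of FPKM. How the loci without an annotated identifier were defined is not given in the sources used here. Read counts were not analysed here.

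Features listed at 0 throughout (504) were not tested. Scaling used the median of ratios, and log2(scaled FPKM + 0.1) was fitted over all 9 libraries with limma 3.58.1 in R 4.3.3 (eBayes with trend), with Benjamini-Hochberg adjustment over 10578 features. Fold changes are on that scale, which understates changes of low features. The code was tested on simulated data.

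The members and lists were chosen with earlier results of these data known. Named loci are the 10 highest, the 5 largest rises and falls per mutant among called loci without overlap, the 3 most abundant called in each direction, the 3 most abundant with opposite calls, the 3 least changed, those at the limit of level and those listed at 0 in a whole strain. For the largest rise and fall per mutant, the 3 nearest annotated profiles are given. Alternatives were other scalings, pseudocounts of 1 and 0.01, filters, a replicate block, robust eBayes, unadjusted p-values and leaving out each library.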

Additional observations from a re-analysis of the deposited data

How the results depend on the processing

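Under the alternatives that kept the choice of members, the number called stayed within 1.5 times its value in each comparison. It was 23 to 31 in Δprmt3 against Δku70, 53 to 60 in ΔcxrA against Δku70 and 51 to 66 in ΔcxrA against Δprmt3. A similar count can hide a change of members. Without scaling, 66 were called in ΔcxrA against Δprmt3, but some of the main calls were not among them. Leaving out each library in turn gave 23 to 29, 53 to 56 and 51 to 57 members, and 19, 52 and 48 of the calls held the same way whichever library was left out. Among loci of at least 10 FPKM in each strain, the percentage called was lower, at 14.5% in Δprmt3 against Δku70, 27.4% in ΔcxrA against Δku70 and 27.4% in ΔcxrA against Δprmt3; the construction of this alternative removes loci that are high in 1 strain only. The rise of locus 5584 in Δprmt3 turned to -0.43 after quantile normalization, which sets the highest values equal. Values that were not called also changed sign: without scaling, locus 537 (-0.04) and locus 3459 (-0.06) in Δprmt3 over Δku70, locus 3002 (0.40) and locus 5459 (0.35) in ΔcxrA over Δku70, and loci 1769 (0.01), 2364 (0.24) and 3002 (0.37) in ΔcxrA over Δprmt3; after quantile normalization, loci 3002 (0.09) and 5459 (0.07) in ΔcxrA over Δku70; and with factors from annotated genes, locus 3002 (0.02) in ΔcxrA over Δku70. Ranges that crossed 0 when each library was left out in turn were those of locus 508 (-0.11 to 0.07), locus 537 (-0.13 to 0.26), locus 3002 (-0.02 to 0.37) and locus 5459 (-0.25 to 0.03) in Δprmt3 over Δku70, of locus 3002 (-0.15 to 0.17) and locus 5459 (-0.16 to 0.04) in ΔcxrA over Δku70, and of locus 3002 (-0.33 to 0.02) and locus 5459 (-0.09 to 0.19) in ΔcxrA over Δprmt3. In all, 22 values of named loci under an alternative changed sign, 1578 kept their sign and their side of the threshold, 63 lost the call and 9 gained one. No pairing by replicate number was seen. Deviations of same-numbered libraries correlated between -0.069 and 0.059, beside -0.069 to 0.069 for differently numbered ones. Whether libraries were handled in numbered batches is not given in the sources used here. With a replicate block 26, 55 and 56 members were called. Depth is unknown in absolute terms and locus lengths are not in the files used here, so no counting error can be given.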
